A study of Mus musculus with 16 samples.

Results

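The effect of Card9 genotype on gene expression in CD11b+ brain cells was measured across all 16 of the 16 RNA-Seq libraries of the study, as the Card9 term of an additive model that also held the 5xFAD transgenes. The term compares 8 libraries of Card9-deficient genotypes (4 Card9-/- and 4 Card9-/-5xFAD) with 8 libraries of Card9-intact genotypes (4 WT and 4 5xFAD), and it was fitted for 14513 of 55385 listed genes, those that passed a filter on low counts. WT mice carried both Card9 copies and no transgenes. Card9-/- mice carried a germline deletion of Card9, which is not limited to microglia. 5xFAD mice carried human transgenes with mutations of familial Alzheimer's disease (AD), which are driven in neurons, and Card9-/-5xFAD mice carried both changes. All mice were female and 20 wk old according to the labels, and came from crosses of 5xFAD, Card9-/- and C57BL/6J mice. Cells were taken from perfused brains without meninges and choroid plexus by magnetic beads against CD11b, a surface protein of microglia that other myeloid cells and natural killer (NK) cells also carry.

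CARD9 is an adaptor protein of myeloid cells. It acts downstream of receptors that signal through ITAM motifs and the kinase SYK, such as the C-type lectin receptor Dectin-1, and it assembles with BCL10 and MALT1 into a complex that activates NF-κB and thereby cytokine genes. In the brain, its best known role is in myeloid defense against fungal infection.

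Gene counts summed to between 5346747 and 11206884 in a Card9-intact library (median 7944265) and between 2970148 and 19333325 in a Card9-deficient one (median 8343263). The 2 shallowest libraries belonged to Card9-deficient genotypes (Card9-/- replicate 4 with 3229322 and Card9-/-5xFAD replicate 4 with 2970148 counts), and they held the lowest scores on principal component (PC) 1 (−55.0 and −44.7), beside 5xFAD replicate 1 (−33.8) and WT replicate 1 (−24.9). Mitochondrially encoded genes took 2.36% and 2.60% of the counts in these 2 libraries, against 0.545% to 1.90% in the other libraries. The 14 microglia markers checked (among them P2ry12, Tmem119 and Cx3cr1) were all expressed, with a summed level of 26340.4 to 54183 CPM per library, where CPM are counts scaled to a common library size. The labels and methods used here do not state that each library came from a separate mouse, so p-values measure the spread between libraries.

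Card9 itself did not separate the genotypes by its read count. Card9 occupies bases 26352176 to 26360918 of chromosome 2 (GRCm38, minus strand). Its level was 13.6, 51.3, 43.2 and 39.3 CPM in WT and 31.6, 34.8, 33.2 and 16.7 CPM in the libraries labelled Card9-/-. With the transgenes it was 15.6, 32.6, 29.1 and 33.5 CPM in 5xFAD and 26.6, 33.7, 9.73 and 10.8 CPM in the libraries labelled Card9-/-5xFAD. The ranges overlapped in both backgrounds, and 27 to 842 reads were counted on Card9 in each library of a Card9-deficient genotype. The log2 fold change of the Card9 term was −0.39 (SE 0.31, 95% confidence interval −1.05 to 0.27, FDR 0.645 by edgeR's quasi-likelihood test). The deposited totals hold no exon-level information, and Gm13562 overlaps Card9 on the other strand. Genotypes were therefore taken from the labels, and each direction given below rests on them.

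Of the 14513 genes tested, 5 passed an FDR of 0.1, which is 0.0345% of all genes tested. Ly6i, Hebp1 and 5430437J10Rik were lower in the Card9-deficient libraries (3 genes, 0.0207%), and Cacnb2 and Thnsl1 were higher (2 genes, 0.0138%). Without adjustment, 1475 genes (10.2%) had p under 0.05, of which 695 were higher (4.79%) and 780 lower (5.37%). The log2 fold change was above 0 for 9055 genes and below 0 for 5458, and its median over all genes was 0.13, the value beside which group medians are set below. This median was 0.01 without 5xFAD replicate 4, 0.05 without Card9-/- replicate 4, 0.04 without the 2 shallowest libraries and 0.02 over the genes that reached 10 counts in all libraries.

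**Figure D1:**
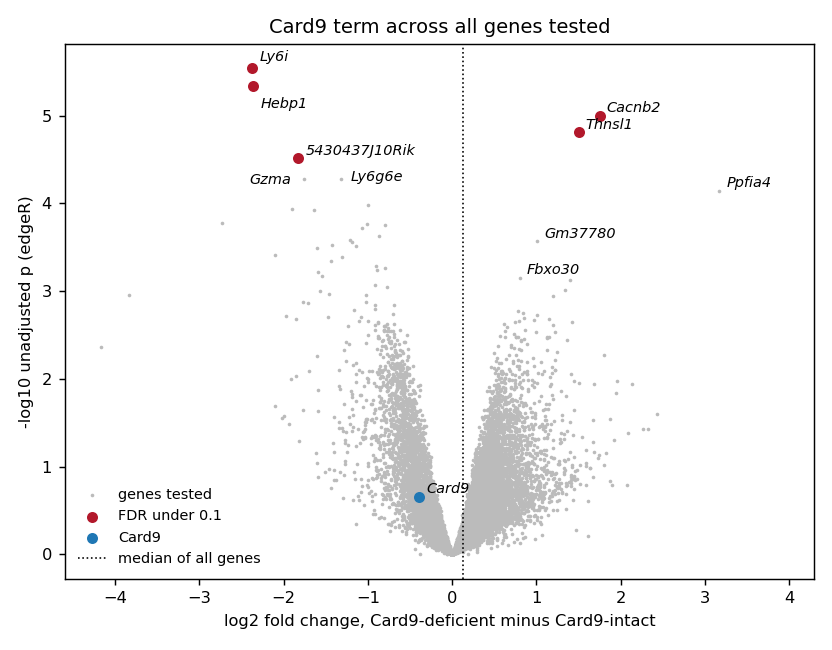
Card9 term of all 14513 genes tested, with the log2 fold change (Card9-deficient minus Card9-intact) on the x axis and −log10 of the unadjusted edgeR p on the y axis. Each point is a gene, red points are the 5 genes past an FDR of 0.1, the blue point is Card9 at −0.39 and the dotted line is the median of all genes at 0.13.

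Ly6i encodes a small GPI-anchored surface protein of the Ly6 family, and it is expressed in monocytes and macrophages. It was at 20.1, 18.7, 17.0 and 21.0 CPM in WT and at 2.04, 2.69, 3.85 and 1.31 CPM in Card9-/-. With the transgenes it was at 21.5, 18.9, 11.5 and 4.36 CPM in 5xFAD and at 2.96, 2.74, 3.48 and 7.21 CPM in Card9-/-5xFAD. Every Card9-/- library was below every WT library, and 5xFAD replicate 4 lay within the range of Card9-/-5xFAD. Ly6i fell by 2.38 on the log2 scale (SE 0.35, FDR 0.0333), with −2.89 without and −1.84 with the transgenes. It belongs to a cluster of similar genes on chromosome 15 (74979534 to 74983430, minus strand), so reads could be shared with relatives in the counting.

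Hebp1 encodes a heme-binding protein of the cytosol that is also the precursor of a chemotactic peptide. It was at 26.9, 61.1, 69.7 and 48.5 CPM in WT and at 4.80, 5.54, 6.46 and 15.05 CPM in Card9-/-. With the transgenes it was at 61.1, 88.8, 82.9 and 79.9 CPM in 5xFAD and at 8.09, 11.1, 43.6 and 16.02 CPM in Card9-/-5xFAD. The ranges were apart in each background, and Card9-/-5xFAD replicate 3 was the deficient library nearest to the intact ones. Hebp1 fell by 2.36 on the log2 scale (SE 0.36, FDR 0.0333). It lies on chromosome 6 (135137522 to 135198022, minus strand) and overlaps Fam234b on the other strand and Gm34391 on its own strand.

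The third gene that fell, 5430437J10Rik, is annotated as a transcribed processed pseudogene on chromosome 15. It was at 2.46, 1.797, 2.54 and 1.82 CPM in WT, and at 0.600, 0.372, 0.593 and 0.981 CPM in Card9-/-. In 5xFAD it was at 0.758, 1.64, 0.899 and 0.545 CPM and in Card9-/-5xFAD at 0.197, 0.228, 0.348 and 0.400 CPM. The ranges were apart in each background at these low levels, which rest on 1 to 10 reads in each Card9-deficient library. This gene passed the filter on low counts only through Card9-intact libraries, where it was higher, so the filter favored this direction. It did not pass the FDR threshold when no filter was used. The change was −1.83 on the log2 scale (SE 0.33, FDR 0.0895).

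Cacnb2 encodes a β subunit of voltage-gated calcium channels, which brings the pore-forming subunit to the membrane. It was at 2.82, 1.797, 2.32 and 2.35 CPM in WT and at 7.81, 8.52, 7.94 and 8.18 CPM in Card9-/-. In 5xFAD it was at 0.910, 1.78, 0.360 and 0.681 CPM and in Card9-/-5xFAD at 2.17, 2.17, 3.82 and 4.41 CPM. The ranges were apart in each background, and the levels with the transgenes were below those without them in both Card9 genotypes. Cacnb2 rose by 1.75 on the log2 scale (SE 0.28, FDR 0.0487), with 1.81 without and 1.68 with the transgenes. The gene lies on chromosome 2 (14603088 to 14987908, plus strand) and overlaps Gm10848 and other genes on the opposite strand.

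Thnsl1, which encodes a threonine synthase-like protein, was at 3.52, 3.94, 1.76 and 3.32 CPM in WT and at 9.97, 10.7, 12.1 and 9.81 CPM in Card9-/-. In 5xFAD it was at 1.97, 4.25, 3.60 and 1.91 CPM and in Card9-/-5xFAD at 7.50, 9.36, 5.56 and 4.81 CPM. All 8 Card9-deficient libraries were above all 8 Card9-intact libraries. Thnsl1 rose by 1.5003 on the log2 scale (SE 0.25, FDR 0.0560). It lies on chromosome 2 (21205724 to 21215009, plus strand).

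**Figure D2:**
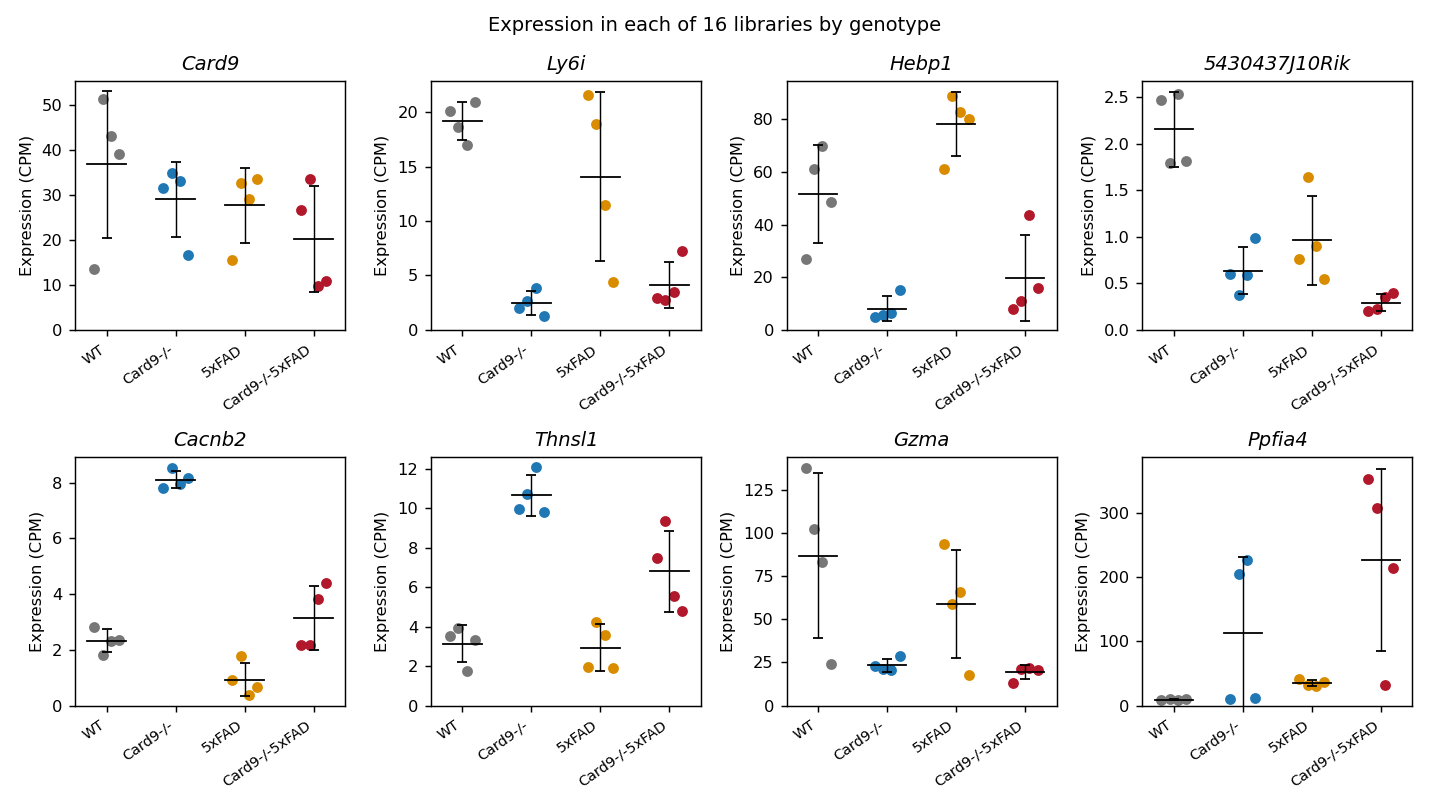
Expression in CPM (y axis, from 0) of Card9, the 5 genes past an FDR of 0.1, and Gzma and Ppfia4 in each of the 16 libraries, by genotype (x axis). Points are libraries, lines are the mean of 4 and bars are the SD; the genotypes overlap for Card9, and Thnsl1 is higher in all 8 Card9-deficient libraries than in all 8 Card9-intact libraries.

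With each of the 16 libraries left out in turn, the number of genes past the threshold ran from 0 to 19. Ly6i and Hebp1 passed in 14 of these 16 fits, and not without Card9-/- replicate 2 (FDR 0.120 for both) or replicate 3 (0.102 for both). Cacnb2 passed in 12, and was also lost without WT replicate 2 (0.162) or 3 (0.147), and without Card9-/- replicate 2 (0.152) or 3 (0.102). Thnsl1 passed in 6, each without 1 of WT replicate 4, Card9-/- replicate 4, 5xFAD replicates 2 and 3, and Card9-/-5xFAD replicates 3 and 4, and had an FDR of 0.103 to 0.248 in the other 10. The pseudogene passed in 2, without Card9-/- replicate 4 or 5xFAD replicate 4, and had an FDR of up to 0.307 in the others. Each of the 5 log2 fold changes kept its direction in all of these fits. With the 2 shallowest libraries left out, an alternative chosen after the data were seen, 9 genes passed (4 higher, 5 lower), and all 5 genes were among them. The number of calls also depended on the model. DESeq2 called 183 genes, and gave no adjusted p for 10470 of 14513 genes, the 5 genes among them. DESeq2 without independent filtering (added later) called 116 with all 5 among them. A fit with 1 surrogate variable called 853 and limma voom with sample quality weights (0.185 to 4.93 per library) called 7562. By contrast, edgeR called 0 among the 10243 genes that reached 10 counts in all libraries (lowest FDR 0.137, 1153 genes with an unadjusted p under 0.05). Ly6i, Cacnb2 and the pseudogene did not reach 10 counts in all libraries, so they were not tested in that last fit.

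Gzma and Ly6g6e came next by p and did not pass. Gzma encodes granzyme A of cytotoxic lymphocytes, and its level was 138, 102, 83.5 and 23.9 CPM in WT and 22.8, 21.1, 20.3 and 28.8 CPM in Card9-/-. In 5xFAD it was 93.4, 58.8, 65.7 and 17.98 CPM and in Card9-/-5xFAD 13.1, 21.3, 21.9 and 20.4 CPM. Replicate 4 of WT and replicate 4 of 5xFAD lay among the Card9-deficient libraries. The log2 fold change was −1.76 (SE 0.33, FDR 0.111), and it passed the threshold without WT replicate 4 (FDR 0.0515) or 5xFAD replicate 4 (0.0241). Ly6g6e, another Ly6 family gene, ran from 2.002 to 7.59 CPM (median 3.74) in Card9-deficient and from 5.72 to 14.5 CPM (median 9.88) in Card9-intact libraries, with a log2 fold change of −1.32 (FDR 0.111).

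On the other side, Ppfia4 had the largest log2 fold change of the 10 genes named by rank, at 3.17 (SE 0.61, FDR 0.131). It encodes liprin-α4, a scaffold protein. Ppfia4 was at 8.27 to 9.67 CPM in WT and at 9.85, 205, 226 and 11.8 CPM in Card9-/-, and at 30.8 to 40.5 CPM in 5xFAD and 353, 307, 31.6 and 213 CPM in Card9-/-5xFAD. Of the 8 Card9-deficient libraries, 5 were above every intact library and the other 3 (9.85, 11.8 and 31.6 CPM) were not. Fbxo30, which encodes a subunit of a ubiquitin ligase, ran from 10.1 to 23.9 CPM (median 17.5) in deficient and from 5.76 to 15.3 CPM (median 9.76) in intact libraries (log2 fold change 0.80, FDR 0.328). Gm37780, an unverified transcript (annotated TEC) within Rsu1, ran from 3.20 to 6.33 CPM against 1.36 to 4.07 CPM (log2 fold change 1.01, FDR 0.211).

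Whether the additive term stands for both backgrounds was tested with an interaction of Card9 genotype and transgenes. No gene passed (0 of 14513 in edgeR's test, lowest FDR 0.999986). In that test 78 genes had an unadjusted p under 0.05, fewer than chance alone gives at this threshold. The test was thus conservative, and its lack of calls does not show that the backgrounds respond alike. DESeq2 called 1 gene and limma voom with sample quality weights called 3. Taken in each background alone, the Card9 effect passed the threshold for 0 genes without the transgenes (lowest FDR 0.2001, 597 genes with an unadjusted p under 0.05) and 0 genes with them (lowest FDR 0.552, 366 genes). DESeq2 on only the libraries of one background called 8 and 6 genes. These contrasts share no library. Their log2 fold changes had the same sign for 75.1% of genes, and 84 of 14513 genes had an unadjusted p under 0.05 in both, all 84 with the same sign. In the additive model 9055 of 14513 genes were above 0. The shallowest libraries, Card9-/- replicate 4 and Card9-/-5xFAD replicate 4, lay on the deficient side of these contrasts. The part of either in the shared sign was not tested.

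**Figure D3:**
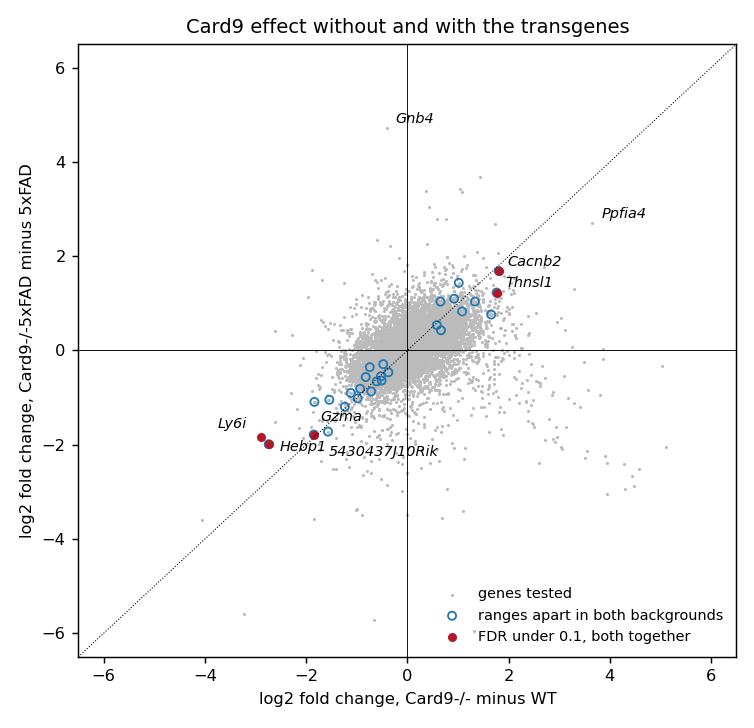
Log2 fold change of each gene tested between Card9-/- and WT (x axis) and between Card9-/-5xFAD and 5xFAD (y axis), each point a gene. The dotted line marks equal values, and 1 gene lies outside the plotted range; the 5 genes past an FDR of 0.1 in the additive model (red) have the same sign on both axes, while Gnb4 lies at −0.41 and 4.71.

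The ranges of the 4 deficient and 4 intact libraries were apart, in the same direction, in both backgrounds for 27 genes (0.186% of genes tested), 10 of them higher (0.0689%) and 17 lower (0.117%). Of the 5 genes past the FDR threshold, 4 are among them and Ly6i is not. Only Thnsl1, Asf1a and Fas were apart for all 8 libraries against all 8. Asf1a, a histone chaperone, had a log2 fold change of −0.69 (SE 0.20, FDR 0.421), and Fas, a death receptor, had −0.55 (SE 0.19, FDR 0.421). Among the 17 lower genes were Gzmb (granzyme B, −1.64), S1pr5 (a sphingosine phosphate receptor of NK cells, −1.31), Glrx5 (a protein of mitochondrial iron-sulfur cluster assembly, −1.01) and Nenf (a secreted heme-binding protein, −0.79). Asf1a, Fas, S1pr5, Glrx5 and Nenf were named after their values were seen.

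Genes on the chromosome of a targeted allele can travel with it through crosses, so the Card9 term was described along chromosome 2. Both genes that rose lie there, Cacnb2 at −11.6 Mb and Thnsl1 at −5.15 Mb from Card9, where a negative distance lies toward the start of the chromosome. Of 297 genes tested within 20 Mb of Card9, 2 passed, 42 (14.1%) had an unadjusted p under 0.05 and 4 (1.35%) were apart in both backgrounds. Over the 13357 genes tested on other chromosomes 3 passed, and these shares were 10.1% and 0.172%. Over all of chromosome 2 the shares were 10.8% and 0.366%. Of the 143 genes within 5 Mb of Card9, 0 passed, 0 were apart and 12.6% had an unadjusted p under 0.05. That last share was 10.1% of 79 genes at 5 to 10 Mb and 21.3% of 75 genes at 10 to 20 Mb. In each of these 2 windows 1 gene passed and 2 were apart. The 4 genes apart were Cacnb2, Thnsl1, Gm37780 and Etl4, all higher in Card9-deficient libraries and all between −13.2 and −5.15 Mb. Etl4, named after its values were seen, had a log2 fold change of 1.14 (SE 0.34, FDR 0.421).

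The genes next to Card9 did not pass the threshold. Snapc4, a subunit of the complex that starts small nuclear RNA transcription, ran from 7.30 to 16.8 CPM (median 12.6) in deficient and from 3.78 to 15.8 CPM (median 4.85) in intact libraries, with a log2 fold change of 0.89 (FDR 0.421). Dnlz, a chaperone of mitochondrial HSP70, had −0.75 (FDR 0.450). Entr1, Qsox2, Gpsm1 and Gm13562 had log2 fold changes between −0.25 and 0.24, and those of Gpsm1 and Gm13562 changed sign in other settings. Which stretch of chromosome 2 came with the deleted allele was not measured here, and its part in the result was not tested.

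**Figure D4:**
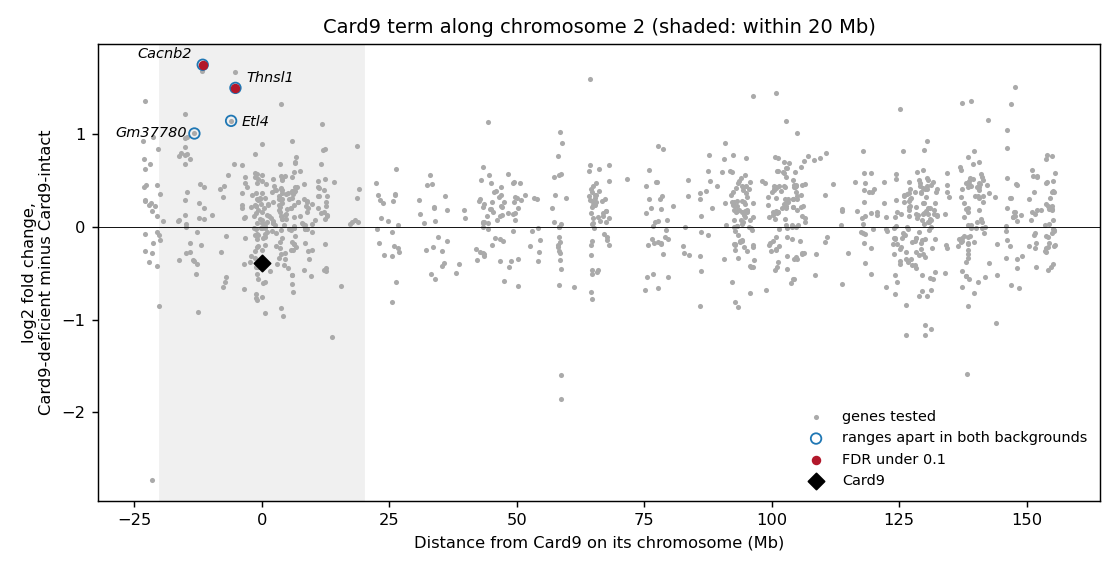
Log2 fold change of the Card9 term (y axis) against distance from Card9 in Mb (x axis) for the 1094 genes tested on chromosome 2. Grey points are genes, red points pass an FDR of 0.1, blue rings mark genes apart in both backgrounds, the diamond is Card9 and the shading spans 20 Mb on each side; the 4 ringed genes lie on the same side of Card9, within 13.2 Mb of it.

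The genes of the CARD9 pathway were described from its receptors to its targets. Of 30 receptors and receptor adaptors upstream of CARD9, 0 passed the FDR threshold. At an unadjusted p under 0.05, 0 were higher and 6 were lower (4.79% and 5.37% of all genes). The median log2 fold change was −0.25, against 0.13 over all genes. Cd300e, an activating receptor of monocytes, ran from 1.20 to 5.52 CPM (median 3.90) in deficient and from 3.81 to 32.0 CPM (median 11.5) in intact libraries (log2 fold change −1.90, FDR 0.158). Trem3, an activating receptor of the TREM family, had −1.19 (FDR 0.211), and Trem2, the lipid receptor of microglia that carries AD risk variants, had −0.61 (FDR 0.421). Clec7a, which encodes Dectin-1, had −0.21, and the shared signaling chains Tyrobp and Fcer1g had 0.04 and 0.01.

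Among 36 genes of CARD9 signaling, 0 passed, 4 were higher and 1 was lower at an unadjusted p under 0.05 (4.79% and 5.37% of all genes), and 31 had a log2 fold change above 0 (9055 of 14513 over all genes), with a median of 0.28. The partners of CARD9 had 0.01 (Bcl10) and 0.30 (Malt1), and Syk had 0.31. Card10, a related scaffold of non-immune cells, had 1.18 (FDR 0.437), at 4.91 CPM or less in every library. Prkcq, a protein kinase C of T cells, was at 2.14 to 4.401 CPM in WT, 8.83 to 14.8 CPM in Card9-/-, 1.67 to 4.09 CPM in 5xFAD and 1.28 to 8.01 CPM in Card9-/-5xFAD. Its Card9 term was 1.22 (FDR 0.421), with 1.93 without and 0.43 with the transgenes. Members of this list, Prkcq among them, were not split by chromosome. Values of genes that may travel with the Card9 allele were therefore not set apart from the others. Inpp5d, the phosphatase SHIP1 and an AD risk gene, had 0.63 (FDR 0.422).

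Of 38 NF-κB subunits, inhibitors and targets, 0 passed, and the median was 0.07. At an unadjusted p under 0.05, 5 were higher and 2 were lower (4.79% and 5.37% of all genes). Nfkbiz and Nfkbid, nuclear regulators of NF-κB that are induced by it, had 0.85 and 0.62 (FDR 0.421 for both), and the subunit Rel had 0.58 (FDR 0.421). Of 34 early response genes, which neurons and myeloid cells induce within minutes of stimulation or handling, 0 passed, 5 were higher at an unadjusted p under 0.05 (4.79% of all genes) and 33 had a log2 fold change above 0 (9055 of 14513 over all genes), with a median of 0.33. Btg2 had 0.80, Egr1 0.80 and Fosb 1.11 (FDR 0.421 to 0.445). The early response genes summed to 8459.8 to 12048 CPM in WT and 10222 to 14496 CPM in Card9-/-, and to 4301 to 12559 CPM in 5xFAD and 9012 to 15592 CPM in Card9-/-5xFAD, so that the ranges overlapped.

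Of 34 genes of disease-associated microglia (DAMs), 0 passed, 1 was higher and 9 were lower at an unadjusted p under 0.05 (4.79% and 5.37% of all genes), and 26 had a log2 fold change below 0 (5458 of 14513 over all genes), with a median of −0.34. Lgals3, which encodes galectin-3, had its lowest and highest levels at 45.8 and 58.8 CPM in Card9-/-, and at 69.5 and 109 CPM in WT. With the transgenes they were 78.2 and 195 CPM in Card9-/-5xFAD, and 163 and 336 CPM in 5xFAD. Its Card9 term was −0.90 (SE 0.21, FDR 0.285). Cst7, a cystatin, had −0.72 and Trem2 had −0.61 (FDR 0.421 for both). DAM genes also respond to the transgenes, and the additive model removes only a response common to both Card9 genotypes. A response that differs by Card9 genotype is not set apart from the Card9 term. The median of the DAM genes was −0.24 without and −0.40 with the transgenes. In the 35 homeostatic microglia genes, 0 passed, and the median was 0.14, near that of all genes. At an unadjusted p under 0.05, 2 were higher and 3 were lower (4.79% and 5.37% of all genes). Crybb1 had −0.78 and Ecscr −0.56 (FDR 0.421 and 0.442).

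Markers of monocytes and of T or NK cells were also examined, because the CD11b sort can hold these cells. In bulk RNA, fewer cells of a type and less RNA per cell cannot be told apart. Of 18 monocyte markers tested, Ly6i passed, and the median was −0.61. At an unadjusted p under 0.05, 1 was higher and 8 (Ly6i included) were lower (4.79% and 5.37% of all genes). Treml4 had −1.47 (FDR 0.421), while Ccr2, a defining receptor of inflammatory monocytes, had 0.56. Monocyte markers summed to 529 to 860 CPM in WT and 385 to 978 CPM in Card9-/-, and to 266 to 541 CPM in 5xFAD and 187 to 495 CPM in Card9-/-5xFAD. These ranges overlapped in both backgrounds while those of Ly6i did not overlap without the transgenes. The part of monocytes in the level of Ly6i was not tested.

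Of 13 T or NK cell markers tested of 20, 0 passed, and 12 had a log2 fold change below 0 (5458 of 14513 over all genes), with a median of −0.76. At an unadjusted p under 0.05, 1 was higher and 6 were lower (4.79% and 5.37% of all genes). The 6 lower were Gzma, Gzmb, Nkg7, Ncr1, Klrk1 and Prf1, and the higher one was Cd4 (1.10, FDR 0.455). Nkg7, a granule protein, was at 6.91 to 32.8 CPM (median 21.0) in deficient and 15.1 to 219 CPM (median 57.7) in intact libraries (log2 fold change −1.71, FDR 0.421), and Gzmb had −1.64 (FDR 0.158). Ncr1, Klrk1 and Prf1 had −1.03, −0.81 and −0.76. The T cell receptor chain gene Cd3e had 5 counts over all 16 libraries, Cd8a had 11 and Cd3g had 62, and none of these was tested. Without 5xFAD replicate 1, Cd3g entered the test and was lower past the threshold. The summed level of the markers had a range of 122 to 757 CPM for WT, 104 to 384 CPM for Card9-/-, 79.0 to 449 CPM for 5xFAD and 60.6 to 306 CPM for Card9-/-5xFAD. These ranges overlapped, and the part of lymphocytes in the levels of Gzma and Gzmb was not tested.

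Choroid plexus or ependymal markers had a median of −1.28 (−2.12 without the 2 shallowest libraries, −0.81 without WT replicate 2). All 11 of 11 log2 fold changes were below 0 (5458 of 14513 over all genes). Of these markers 0 passed the FDR threshold and 3 were lower at an unadjusted p under 0.05 (5.37% of all genes). Their summed level spread from 29.5 to 1772 CPM in WT, 101 to 3070 CPM in Card9-/-, 315 to 1510 CPM in 5xFAD and 6.02 to 1213 CPM in Card9-/-5xFAD. Tppp3, a tubulin-binding protein of ciliated cells, ran from 2.002 to 7.197 CPM (median 3.87) in deficient and 2.18 to 17.1 CPM (median 10.8) in intact libraries (log2 fold change −1.43, FDR 0.264). Igfbp2, a secreted binder of insulin-like growth factors, had −2.10, with −0.89 without and −3.49 with the transgenes (FDR 0.446).

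The other lists held no gene past the threshold except Hebp1 among 25 iron handling genes (median 0.02). Within that list Slc25a37, the mitochondrial iron importer mitoferrin-1, had 0.53 (FDR 0.431). Of 27 NADPH oxidase and antioxidant genes (median −0.13), 0 were higher and 7 were lower at an unadjusted p under 0.05 (4.79% and 5.37% of all genes). Gpx4, the lipid peroxide reductase, had −0.76, Prdx5 −0.67 and Sod2 −0.50 (FDR 0.421 to 0.441). Among 11 MHC class II genes (median −0.29), H2-Oa and H2-DMa had −0.87 and −0.71, and their transactivator Ciita had 0.63 (FDR 0.421 to 0.431). Of 34 proliferation genes (median −0.09), 1 was higher and 6 were lower at an unadjusted p under 0.05 (4.79% and 5.37% of all genes). Stmn1 had −0.87, Ube2c −0.85 and Birc5 −0.73 (FDR 0.421 for all).

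Among 34 type I interferon-stimulated genes (median 0.09), 2 were higher and 2 were lower at an unadjusted p under 0.05 (4.79% and 5.37% of all genes). Stat2, a transcription factor of the response, had 0.62, and Bst2 and Rtp4 had −0.73 and −0.70 (FDR 0.450 to 0.463). Of 15 heat shock genes, Hsph1 and Dnajb1 had 0.53 and 0.54, and Cryab had −1.18 (median 0.14, FDR 0.421 to 0.460). The complement genes C1qa, C1qb and C1qc, counted here as microglia markers, had −0.59, −0.56 and −0.68 (FDR 0.421 to 0.480), and the median of the 14 microglia markers was −0.20.

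Border-associated macrophage markers had a median of 0.31, with Mrc1 at 0.46, F13a1 at 0.63 and Folr2 at −0.69 (FDR 0.453 to 0.468). The median became −0.13 without the 2 shallowest libraries. In the remaining marker lists the medians were 0.19 (neutrophil), −0.16 (B cell), 0.03 (oligodendrocyte), −0.08 (astrocyte), 0.27 (neuron), −0.22 (endothelial cell or pericyte) and −0.82 (red blood cell). Without both shallow libraries those of neutrophil, oligodendrocyte and astrocyte markers became −0.86, −0.85 and −0.76. Those of neuron, endothelial cell or pericyte and red blood cell markers became −0.14, −0.68 and −2.54, and that of red blood cell markers was 0.09 without WT replicate 1. Of these 7 lists, 4 to 16 members were tested. Of 7 oligodendrocyte markers, 4 had a log2 fold change above 0 and 3 below 0 (9055 and 5458 of 14513 over all genes). Mbp and Mobp, genes of myelin proteins, had −0.91 and −1.08 (FDR 0.455 and 0.437), and Ntsr2, an astrocyte receptor, had −1.19 (FDR 0.476).

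**Figure D5:**
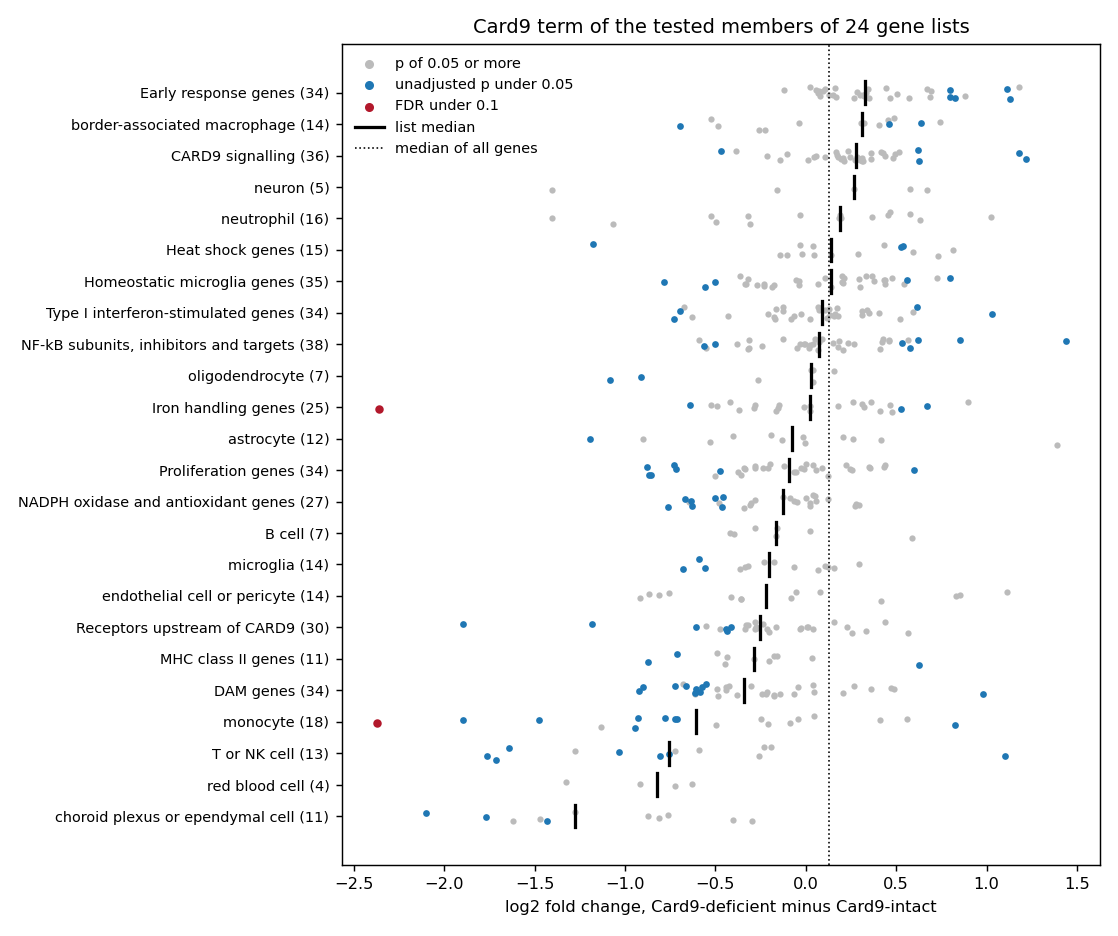
Log2 fold change of the Card9 term (x axis) for the tested members of 24 gene lists (y axis, number tested in brackets), each point a gene, colored by its p. Black ticks are list medians and the dotted line is the median of all genes at 0.13; choroid plexus markers have a median of −1.28 and early response genes of 0.33, and Hebp1 and Ly6i are the 2 members past an FDR of 0.1.

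The study had named 15 genes for its comparisons of Card9 genotypes on these same libraries, so their values here are no independent evidence. Ly6i, Hebp1, Cacnb2 and Thnsl1 are 4 of them and passed in the additive model. Klf4, a transcription factor, had a log2 fold change of 1.13 (SE 0.52, FDR 0.486), with 0.63 without and 1.64 with the transgenes, and 0.61 without Card9-/- replicate 4 or 1.59 without WT replicate 1. Its level was 214 CPM for Card9-/- replicate 4, 120 CPM for WT replicate 1 and 11.97 to 53.7 CPM in the rest of the libraries without transgenes. With the transgenes Klf4 ran from 14.4 to 32.9 CPM in 5xFAD and from 55.6 to 70.7 CPM in Card9-/-5xFAD, so that these ranges were apart. Gnb4, a G protein β subunit, was at 22.6, 17.5, 0.695 and 16.4 CPM in Card9-/-5xFAD and at 1.94 CPM or less in all other libraries. Its Card9 term was 2.09 (FDR 0.480), with −0.41 without and 4.71 with the transgenes. Madcam1, an adhesion molecule of vessels, had −1.78 (SE 0.47, FDR 0.421), and Scand1 had −1.17 (SE 0.31, FDR 0.421). Iqcn had 1.95 (FDR 0.421) and the pseudogene Gm18736 had −4.17 (FDR 0.421), at 0 to 14.8 CPM in intact and 0 to 3.60 CPM in deficient libraries.

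Card9 genotype was also compared with the main axes of variation among the libraries, in the 500 most variable genes. PC1 held 61.0% and PC2 23.7% of the variance, and Card9 genotype did not differ in mean score on either beyond the spread of libraries (adjusted p = 0.867 and 0.816, exact two-sided permutation test with Card9 labels exchanged within each transgene background, 4900 assignments). On PC4, which held 2.71% of the variance, scores ran from −13.8 to 1.64 in Card9-deficient and from −1.92 to 10.7 in Card9-intact libraries, a difference in means of −6.90 (adjusted p = 0.0490 by the same exact permutation test). Leaving out 1 library gave a lowest adjusted p over the components of up to 0.129, and above 0.05 in 8 of 16 cases. The component that differed was PC2 with all genes past the filter and PC3 with another log2 scale (adjusted p = 0.0376 and 0.0261 by the exact permutation test).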

How the data were processed

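RNA of CD11b+ cells from 16 mouse brain samples was sequenced. The authors aligned reads to mm10 with HISAT2, filtered them with Samtools, counted them per gene with HTSeq and deposited whole-number counts without normalization; the strand setting is not given in the sources used here. Gene symbols altered by R were restored for 4889 genes, and positions came from GENCODE M21 (53382 genes) or RefSeq GRCm38.p6 (1001) for 54383 of 55385 listed genes.

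Counts were tested in R 4.3.3 with edgeR 4.0.16 (quasi-likelihood, TMM, filterByExpr with minimum count 10 by the 4 genotypes, Benjamini-Hochberg, FDR 0.1) in a model of transgenes plus Card9 genotype. CPM uses TMM library sizes. DESeq2 1.42.0 (the tool of the study), limma 3.58.1 voom and sva 3.50.0 gave alternatives. Totals of 2970148 to 19333325 counts per library limit precision for genes of low level. No 2 libraries of a genotype agreed within sampling noise (24 pairs compared, with a chi-square of at least 6.28 per degree of freedom). The steps were tested on simulated data with known Card9 changes. The main edgeR model called 19 of 65 genes changed 2-fold (29.2%) and 60 of 66 changed 4-fold (90.9%). It also called 2 of 13965 unchanged genes.

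Named genes are the genes past FDR 0.1, the next by p up to 5 per direction, Card9, 15 genes named by the study, up to 3 members of each list by p, and the nearest tested genes to Card9 (3 per side). The lists and comparisons were chosen with earlier results of these data known. Other genes of a list were named by their role after values were seen (Bcl10, Malt1, Syk, Clec7a, Tyrobp, Fcer1g, Ccr2, Cd3e, Cd8a, Ncr1, Klrk1, Prf1). Some genes that this rule names are not reported here.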

Additional observations from a re-analysis of the deposited data

Results flagged for a closer look

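In 84 groups of 4 libraries (21 genes by 4 genotypes, on log2 of CPM plus 0.1), 6 had 1 library far from the other 3. Chance gives about 1 in 20 such groups. Card9 itself was at 16.7 CPM in Card9-/- replicate 4 and at 31.6 to 34.8 CPM in the other replicates, and Gzma was at 13.1 CPM in Card9-/-5xFAD replicate 1 and at 20.4 to 21.9 CPM in the others. Gnb4 stood apart in 3 genotypes. It was at 0 CPM in Card9-/- replicate 4 (1.08 to 1.24 CPM in the others), at 0.899 CPM in 5xFAD replicate 3 (0.409 to 0.455 CPM) and at 0.695 CPM in Card9-/-5xFAD replicate 3 (16.4 to 22.6 CPM). In 5xFAD these levels rest on 3 to 5 reads per library, and 0 reads in Card9-/- replicate 4, one of the 2 shallowest libraries, compare with 10 to 26 reads in the other replicates. Madcam1 was at 2.45 CPM in 5xFAD replicate 4 and at 7.19 to 8.50 CPM in the others. The cause of these gaps was not tested.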

How the results depend on the processing

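The number of genes past the threshold (5, of which 2 on chromosome 2) was 4 and 0 with no filter on low counts, 0 and 0 with 10 counts or more required of all libraries, 183 and 18 with DESeq2, 7562 and 610 with limma voom and sample quality weights, 853 and 88 with 1 surrogate variable, and 3 and 1 at an FDR of 0.05. With 10 counts or more required of all libraries, Ly6i, Cacnb2 and 5430437J10Rik were not tested. DESeq2 gave no adjusted p for 10470 of 14513 genes. Of the calls above, 21 of 183 were higher with DESeq2, 255 of 853 with the surrogate variable and 4192 of 7562 with voom. Among alternatives chosen after seeing the data, the number past the threshold was 9 and 2 without the 2 shallowest libraries, 144 and 23 with PC1 as a covariate, and 116 and 14 with DESeq2 without independent filtering. Leaving out 1 library gave 0 to 19 genes, and 0 to 2 on chromosome 2. The cause of these differences was not tested. The median of all genes was 0.13, and it ran from 0.01 (without 5xFAD replicate 4) to 0.16 (without WT replicate 1) over all of these settings.

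A replicate block gave 9 genes (2 higher, 7 lower), 2 of them on chromosome 2 and 4 of them shared with the 5. Same-numbered libraries had deviations correlated between −0.71 and 0.73, and 5 of 16 libraries correlated best with their own number. The correlations ran from 0.066 to 0.61 for replicate 2 and from 0.13 to 0.49 for replicate 3. Such values cannot decide whether equal numbers share a batch, and the main model holds no replicate block.

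The interaction passed for 1 gene with the DESeq2 model, 3 with voom, and 0 to 1 with 1 library left out. DESeq2 on one background called 8 genes without and 6 with the transgenes. The lowest adjusted p of the components ran from 0.00653 to 0.129 with 1 library left out.

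The median of NADPH oxidase and antioxidant genes was −0.31 with 1 surrogate variable and −0.31 to −0.10 with 1 library left out. That of border-associated macrophage markers was −0.12 with 1 surrogate variable, −0.13 without both shallow libraries, −0.0325 with PC1 as a covariate and −0.0777 to 0.38 with 1 library left out. Without both shallow libraries, medians were −0.86 (neutrophil), −0.85 (oligodendrocyte) and −0.76 (astrocyte).

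Some genes that did not pass changed sign. The log2 fold change of Gm13562 was −0.0132 with DESeq2 size factors, −0.0169 with 4 genotype means, −0.00489 with 1 surrogate variable, −0.0618 with the replicate block, −0.11 with PC1 as a covariate and −0.27 to 0.20 with 1 library left out. With voom it was 0.28 (Gpsm1), −0.086 (Ighd) and −0.29 (Rbfox3). Without both shallow libraries it was 0.00895 (Gpsm1), −0.20 (Ighd), −0.36 (Kdr), 0.018 (Mag) and −0.50 (Rbfox3). With 1 library left out it ran from −0.41 to 0.00042 (Gpsm1), −1.62 to 0.17 (Hba-a1), −1.98 to 0.014 (Hbb-bs) and −0.22 to 0.77 (Rbfox3).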
